A study of Mus musculus with 4 samples.

Results

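The genes described here encode molecular chaperones, folding enzymes of the endoplasmic reticulum (ER), parts of the ER entry and export machinery and factors of the unfolded protein response. They were chosen by name: every listed gene whose symbol matched a fixed pattern of chaperone, ER folding and stress gene names was taken, whatever its values. The pattern picked 55 of the 5807 genes in the deposited table of eosinophils from the pleural cavity and from bone marrow. Of the mouse protein-coding genes annotated under a matching name, 118 of 173 were not listed, and these have no value and no direction here.

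Eosinophils were sorted from wild-type mice (genotype WT in the labels) on the second day after intrapleural injection of LLC cells, a line from a Lewis lung carcinoma of mice that gives rise to malignant pleural effusion (MPE). There were 2 libraries from bone marrow eosinophils and 2 from pleural cavity eosinophils, and no label says whether they came from separate or pooled animals. Bone marrow cells were enriched with F4/80 and gated as live CD45+ SiglecF+ cells of high side scatter, whereas pleural cells were enriched with CD45 and also gated as CD11c-, Gr1-/low, CD11b+ and F4/80+. The methods describe the bone marrow as that of LLC-injected mice, whereas the paper's results call its eosinophils naive. The labels name LLC for both tissues and give no uninjected control, so tissue, enrichment and gate cannot be told apart. If the marrow was naive, injection cannot be told apart from them either. The table gives 1 mean read count per gene and tissue, averaged by its authors, and holds only genes that they called different. No spread between libraries could therefore be computed, and no result below is a test.

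Proteins bound for the cell surface, for granules or for secretion enter the ER through the Sec61 channel, lose their signal peptide and are folded there by the HSP70 family member BiP, the HSP90 family member GRP94, the lectins calnexin and calreticulin, disulfide isomerases and prolyl isomerases. Folded proteins leave in COPII vesicles, and misfolded ones are returned to the cytosol for degradation. When unfolded proteins build up, the sensors IRE1, PERK and ATF6 raise the output of folding genes, in part through the ER stress response element (ERSE) in their promoters, and IRE1 does so by splicing the Xbp1 transcript. Cytosolic HSP70 and HSP90 fold the proteins of the cytosol, are driven by J-proteins and are induced through heat shock elements. Eosinophils load large amounts of granule protein, such as eosinophil peroxidase and major basic protein, through the ER while they mature in the bone marrow.

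The ERSE consists of CCAAT and CCACG with 9 bases between them. Among the 44 members with a promoter sequence in the RefSeq table (GRCm38.p6, from 250 bases before to 50 bases after the start), 5 carried it, and these sites are shown because they belong to ER folding genes that were all lower in pleural cavity eosinophils. Each is written in the direction of the element, 5′ to 3′, with CCAAT and CCACG in capitals and 5 bases on either side.
Hspa5 (chr2:34772020-34772048, plus strand): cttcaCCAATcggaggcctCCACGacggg
Hsp90b1, upstream site (chr10:86705633-86705661, minus strand): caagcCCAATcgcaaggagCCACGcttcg
Hsp90b1, downstream site (chr10:86705528-86705556, plus strand): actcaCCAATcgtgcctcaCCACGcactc
Calr (chr8:84847070-84847098, plus strand): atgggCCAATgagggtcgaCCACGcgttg
Canx (chr11:50325795-50325823, minus strand): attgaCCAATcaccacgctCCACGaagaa
Dnajc3 (chr14:118937822-118937850, plus strand): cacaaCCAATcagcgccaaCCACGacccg
The element of Hspa5 ran from position -65 to -47, counted from the start used by RefSeq, and the printed stretch overlapped an exon that GENCODE annotates for Hspa5. That of Calr ran from -162 to -144, on the strand opposite to the gene.

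Of 16 ER folding genes, a grouping made after the values were seen, all but Dnajb9 were lower in pleural cavity than in bone marrow eosinophils. Of all listed genes, 57.5% were lower. J-protein genes and genes of ER export were in part higher. After both tissues were scaled to the sum of their listed reads, 35 of the 55 members were lower in pleural cavity eosinophils, where 57.5% of all listed genes were, and 20 were higher, where 42.5% were. These shares are near those of all listed genes. The paper, at more than 2-fold on its own fold changes, reports a larger share of the listed genes as lower than any scaling here gives. More than 2-fold lower were 20 members, against 50.5% of all listed genes. More than 2-fold higher were 5 members, against 16% of all listed genes. The remaining 30 lay within 2-fold. The median log2 ratio of pleural cavity over bone marrow was -0.74 for the members, with quartiles of -1.30 and 0.49, and -1.02 for all listed genes. Together the members held 1.11% of the listed reads in pleural cavity eosinophils against 1.61% in those of bone marrow.

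The zero line of these ratios depends on the scaling. Of the members past 2-fold, 20% were on the higher side as scaled here, 52.2% without scaling, 32% with TMM, 30.8% with the zero set at the centre of the gap between the lower and the higher listed genes and 5.41% with the median of ratios over genes of 1000 or more mean reads in each tissue. Of all listed genes past 2-fold, 24.1%, 41.4%, 30.3%, 28.8% and 13.6% were on the higher side in the same order. The side of zero was the same for every member without scaling, with TMM and with the centre of the gap. With the median of ratios, Xbp1, Dnajb6, Sec11c, Dnajc14 and Dnajb1 turned lower. Ratios between 2 members do not depend on the scaling, and they are given below where a result turns on them.

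Listed genes with many reads were mostly higher in pleural cavity eosinophils, and these members were not. Of the 1524 listed genes whose means reached 1000 reads in each tissue, 71.6% were higher and 28.4% lower, with a median log2 ratio of 0.44. Among the 32 members at that depth, 11 were higher and 21 lower, with a median of -0.69. The median of ratios sets the median of these genes to 0 by construction, and the distance between both medians is the same on every scaling. More than 2-fold lower were 8 of these members, where 13.2% of the genes at that depth were. More than 2-fold higher were 2 members, beside 16.9% of such genes. At a lower depth of 100 mean reads in the higher tissue, 34 of 54 members were lower (46.9% of the genes there) and 20 higher (53.1%), with 19 more than 2-fold lower (38%) and 5 more than 2-fold higher (19.3%).

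**Figure D1:**
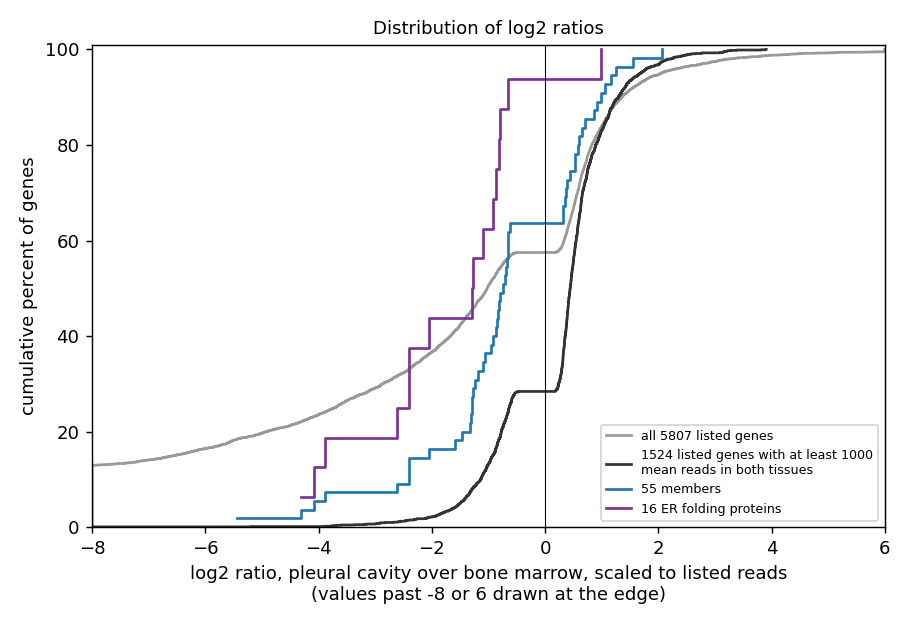
Cumulative percent of genes (vertical) at or below each log2 ratio of pleural cavity over bone marrow mean reads (horizontal), with 1 curve each for all listed genes, the listed genes with many reads, the members and the ER folding proteins. The members' median lies at -0.74 and that of all 5807 listed genes at -1.02, and no listed gene lies between -0.47 and 0.18 because the table holds only genes called different.

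Markers of the sorted cells and of other cell types moved with the tissue. Of 7 eosinophil markers 6 were listed, with the surface markers Ccr3, Adgre1 and Siglecf higher in pleural cavity eosinophils and the granule genes Epx and Prg2 and the lipoxygenase gene Alox15 lower, and Il5ra was not listed. Together the 6 took 1.22% of the listed reads in pleural cavity eosinophils against 6.88% in those of bone marrow. Epx, eosinophil peroxidase, had 341.5 mean reads in pleural cavity eosinophils against 139061.5 in those of bone marrow. Of 13 neutrophil and granulocyte precursor markers, 12 were listed and all were lower, and together they took 0.0165% of the listed reads in pleural cavity eosinophils against 10.4% in those of bone marrow. All 5 proliferation markers were lower, with summed shares of 0.00420% and 0.126%. Of 7 plasma cell markers only Jchain and Derl3 were listed, both lower and summing to 0.000307% and 0.00416%. All 5 basophil and mast cell markers were lower, from 0.0912% in bone marrow to 0.000906%. Of 7 macrophage markers 4 were listed, with summed shares of 0.492% in pleural cavity and 0.795% in bone marrow. Most of these reads were those of Lyz2, which was lower, with 50393 and 87527 mean reads. C1qa, C1qb and Csf1r were higher, with log2 ratios of 0.92, 1.77 and 1.94. The part of these cells in the results below was not tested, and in bulk samples fewer cells of a type and less RNA per cell cannot be told apart.

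All 5 ER chaperone and lectin genes were lower in pleural cavity eosinophils, and their summed share of the listed reads was 0.175% there and 0.410% in bone marrow eosinophils. Calr encodes calreticulin, the soluble lectin chaperone of the ER and one of its main calcium stores. It lies on chromosome 8 (84841850-84846934, minus strand, GRCm38) and had 3442 mean reads in pleural cavity eosinophils against 13438 in those of bone marrow. The log2 ratio was -2.40, or 5.29-fold lower, with a 95% counting interval of -2.44 to -2.37. Such intervals (exact binomial, Clopper-Pearson, on the reads of both libraries of each tissue) cover counting error only and not the spread between mice. Among the 1524 genes that reached 1000 mean reads in each tissue, Calr ranked number 23 from the lowest. Per kilobase of transcript, it was second among the members in bone marrow eosinophils and stood at place 13 in pleural cavity eosinophils.

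Canx, calnexin, is the membrane-bound partner of calreticulin and binds the same sugar on new glycoproteins. It had 7202 and 8320 mean reads in pleural cavity and bone marrow eosinophils, a log2 ratio of -0.65. Calr was lower relative to Canx on any scaling: for each Canx read there were 0.478 Calr reads in pleural cavity eosinophils against 1.62 in those of bone marrow, a log2 difference of -1.76. Both genes carry an ERSE.

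Hspa5 encodes BiP, the ER HSP70 protein that binds unfolded chains and holds the stress sensors inactive. It lies on chromosome 2 (34771970-34777547, plus strand) and had 7670 mean reads in pleural cavity eosinophils against 13590 in those of bone marrow, with a log2 ratio of -1.26 (95% counting interval -1.29 to -1.24) or 2.40-fold lower. Its means are not multiples of 0.5, so some of its reads were shared with other genes in the estimate. Hsp90b1 encodes GRP94, the HSP90 protein of the ER, which folds integrins and Toll-like receptors. Hsp90b1 was 1.74-fold lower, with 9423 and 12104.5 mean reads. Hyou1 encodes GRP170, the nucleotide exchange factor of BiP, and was 6.15-fold lower, with 160.5 and 728 mean reads.

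All 4 disulfide isomerase genes of the name pattern were lower as well, where 57.5% of all listed genes were. They held 0.108% of the listed reads in pleural cavity eosinophils against 0.226% in those of bone marrow. Of the same family outside the pattern, Txndc5 and Txndc11 had log2 ratios of -0.75 and -1.01. Tmx3 was higher at 0.35, a sign that the median of ratios turned. P4hb encodes protein disulfide isomerase itself, which is also a subunit of prolyl 4-hydroxylase. It had 6094.5 and 11035.5 mean reads in pleural cavity and bone marrow eosinophils, 2.45-fold lower. Pdia3, or ERp57, works on glycoproteins held by calnexin and calreticulin and was 1.89-fold lower, with 8134 and 11337 mean reads. Pdia4, or ERp72, was 1.76-fold lower, with 2958.5 and 3844.5 mean reads. Pdia5 stood furthest apart in this group, with 30.5 mean reads in pleural cavity eosinophils against 331.5 in those of bone marrow, a log2 ratio of -3.88 (95% counting interval -4.28 to -3.50).

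**Figure D2:**
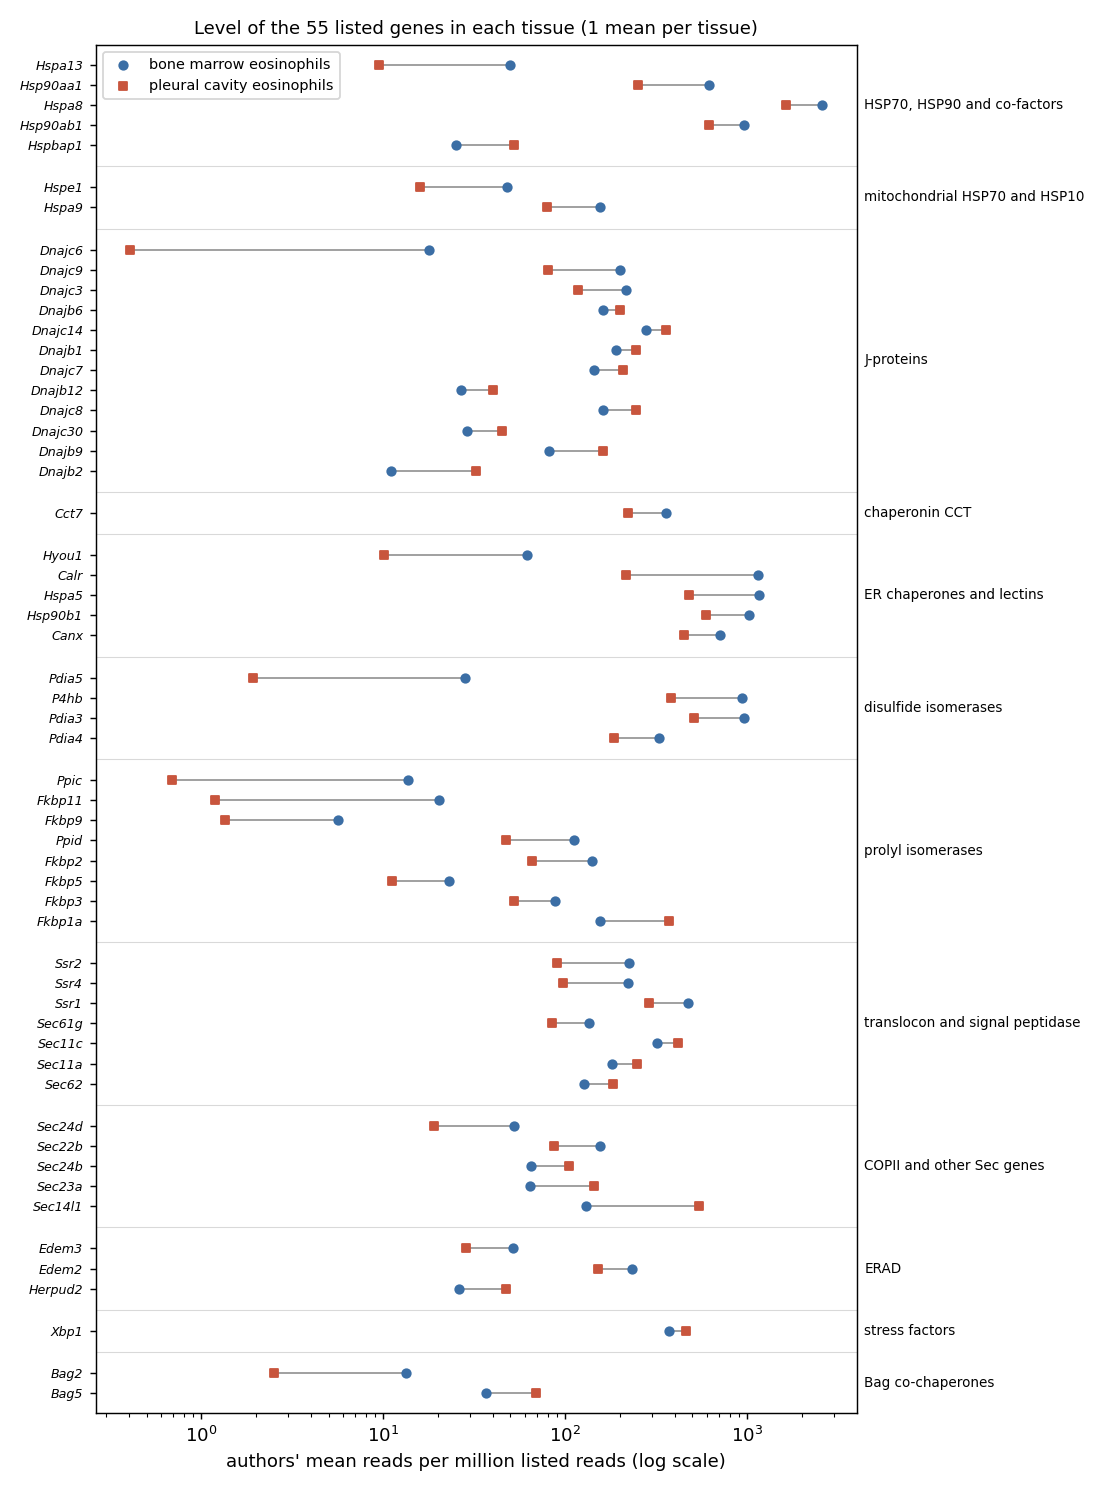
Mean reads of each member, scaled to the sum of the listed reads, on a log axis, with a circle for bone marrow and a square for pleural cavity eosinophils and genes grouped by role. The squares lie left of the circles for all ER chaperone, lectin and disulfide isomerase genes, and Sec14l1, at 4.20-fold higher, has its square furthest to the right of its circle.

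Of 8 prolyl isomerase genes, 7 were lower, where 57.5% of all listed genes were, and Fkbp1a was higher. Fkbp1a encodes FKBP12, the cytosolic target of FK506 and rapamycin. It had 5918.5 mean reads in pleural cavity eosinophils against 1822.5 in those of bone marrow, 2.40-fold higher. Fkbp2, which resides in the ER, went the other way, with 1047 and 1643 mean reads and a log2 ratio of -1.09. For each Fkbp2 read there were 5.65 Fkbp1a reads in pleural cavity eosinophils against 1.11 in those of bone marrow. Fkbp2 and Fkbp3 had fractional means.

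Fkbp11, Ppic and Fkbp9 had few reads in pleural cavity eosinophils. Fkbp11, an ER isomerase of secretory cells, had 19 mean reads there and 237 in bone marrow eosinophils, a log2 ratio of -4.08. Ppic, cyclophilin C of the secretory pathway, had 11 and 160.5, with a log2 ratio of -4.31. Fkbp9, an isomerase of the ER, had 21.5 and 66. These are large ratios on small numbers. The plasma cell marker Jchain also had few reads, 39 against 447.5, and its part in them was not tested. Fkbp5, a glucocorticoid-induced co-chaperone of HSP90, had 177 and 271 mean reads with a log2 ratio of -1.05. Ppid, cyclophilin 40, another HSP90 co-chaperone, had 753.5 and 1313 with a log2 ratio of -1.24. The nuclear isomerase Fkbp3 had 836 and 1028, with a log2 ratio of -0.74.

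At the ER entry site, 4 genes were lower and 3 higher, where 57.5% and 42.5% of all listed genes were. Ssr1, Ssr2 and Ssr4 encode subunits of the translocon-associated protein complex, which sits beside the channel. Ssr2 had 1436.5 and 2626.5 mean reads in pleural cavity and bone marrow eosinophils, with a log2 ratio of -1.31. Ssr4 had 1544 and 2591, with a log2 ratio of -1.19. Ssr1 had 4625.5 and 5551, with a log2 ratio of -0.70. Sec61g, the small gamma subunit of the channel, was at -0.67, with 1353 and 1590 mean reads.

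Higher at the same site were Sec62 and both catalytic subunits of the signal peptidase. Sec62, which helps proteins enter after translation and takes part in the removal of ER by autophagy, had 2913.5 and 1482 mean reads with a log2 ratio of 0.54. For each Sec61g read there were 2.15 Sec62 reads in pleural cavity eosinophils against 0.932 in those of bone marrow. Sec11a had 3953 and 2137 mean reads with a log2 ratio of 0.45. Sec11c had 6624.5 and 3755 with a log2 ratio of 0.38, which is one of the signs that the median of ratios turned. For each Ssr2 read there were 2.75 Sec11a reads in pleural cavity eosinophils against 0.814 in those of bone marrow.

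Genes of ER export and other Sec genes were split, with 3 of 5 higher, where 42.5% of all listed genes were. Sec14l1, a lipid-binding protein that carries the Sec name without being part of the COPII coat, had the largest ratio of all members. It lies on chromosome 11 (117115168-117159268, plus strand) and had 8687.5 mean reads in pleural cavity eosinophils against 1525 in those of bone marrow, 4.20-fold higher. Sec23a, an inner coat subunit of COPII, had 2286.5 and 748.5 mean reads with a log2 ratio of 1.17. Sec22b, a SNARE of traffic between ER and Golgi, had 1386.5 and 1823 with a log2 ratio of -0.83.

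The 2 listed Sec24 genes, which select cargo for the same coat, went opposite ways. Sec24b had 1677.5 mean reads in pleural cavity eosinophils against 760 in those of bone marrow, with a log2 ratio of 0.70. Sec24d had 301 and 611, with a log2 ratio of -1.46. For each Sec24d read there were 5.57 Sec24b reads in pleural cavity eosinophils against 1.24 in those of bone marrow, a log2 difference of 2.16 that no scaling alters. Sec24d had fractional means.

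**Figure D3:**
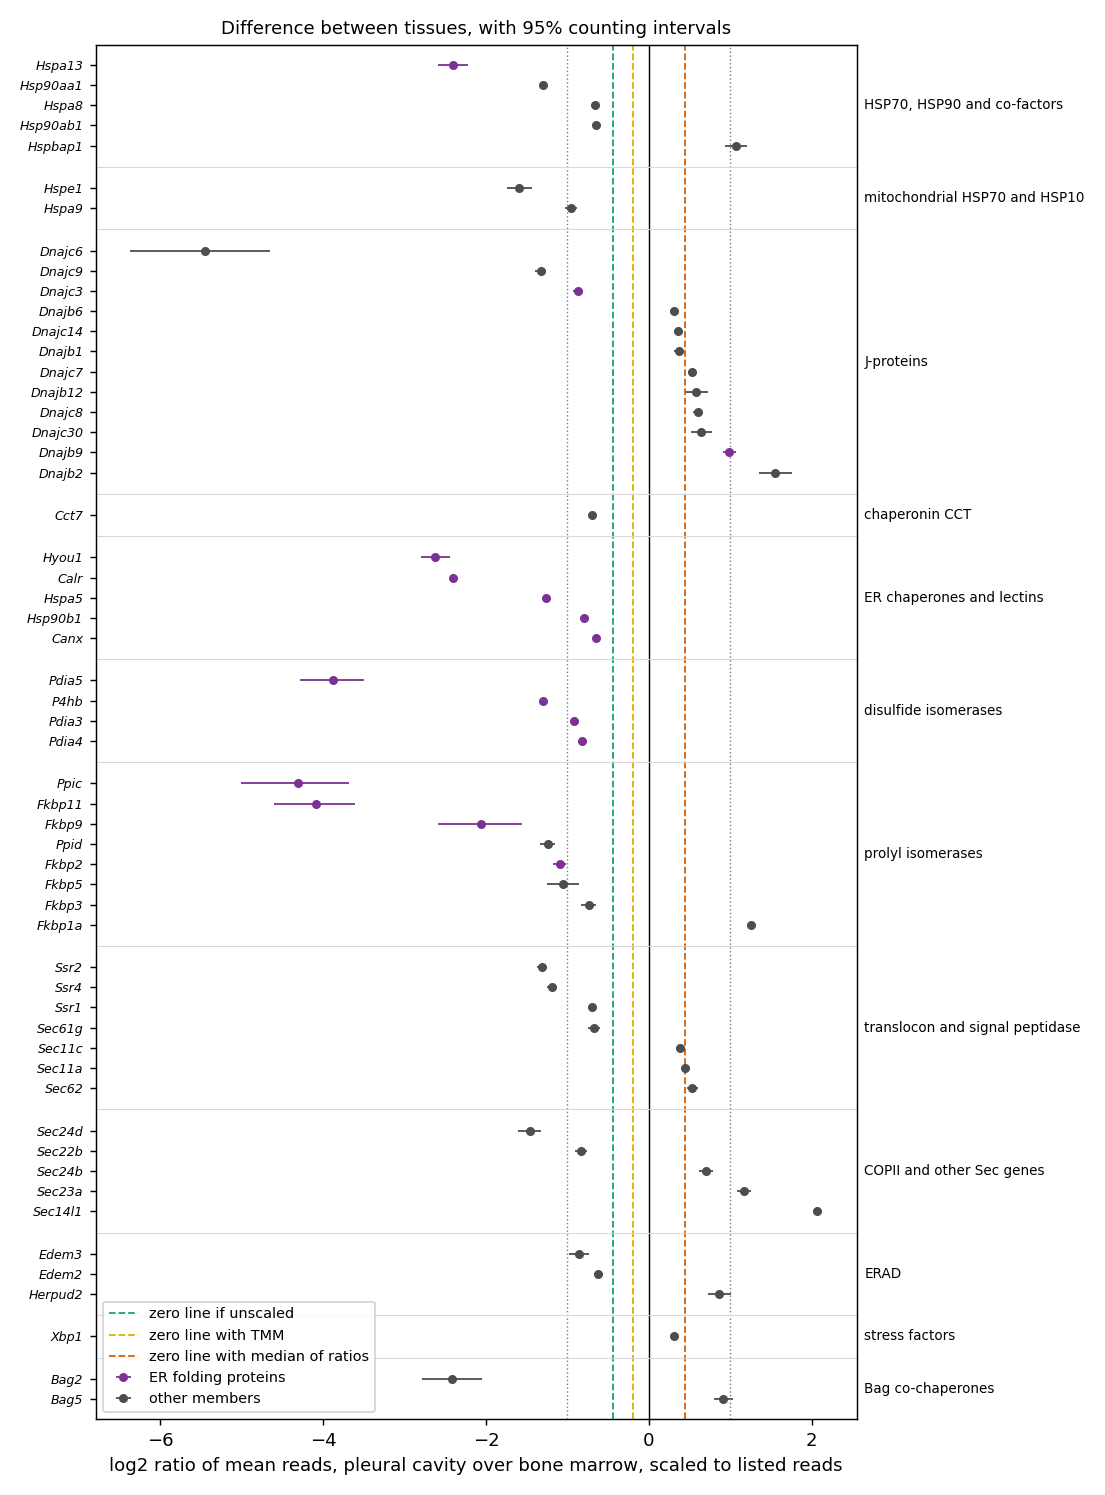
Log2 ratio of pleural cavity over bone marrow mean reads of each of the 55 members, ordered within its role group, with bars for the 95% counting interval, dotted lines at 2-fold and dashed lines for the zero under other scalings. All ER chaperone, lectin and disulfide isomerase genes lie below 0, whereas 9 of 12 J-protein genes lie above it, or 6 of 12 with the zero of the median of ratios.

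3 genes belong to ER-associated degradation by name. Edem2 and Edem3 trim mannose from misfolded glycoproteins and had log2 ratios of -0.62 and -0.86, with 2409 and 2735 mean reads for Edem2 and 456 and 608.5 for Edem3. Herpud2, a relative of the degradation factor HERP, was at 0.87, with 757.5 and 306.5 mean reads.

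Xbp1, the transcription factor that IRE1 activates by splicing and a gene that eosinophil precursors need, was the only listed stress factor of the pattern. It lies on chromosome 11 (5520659-5525893, plus strand) and had 7358.5 mean reads in pleural cavity eosinophils against 4365.5 in those of bone marrow, with a log2 ratio of 0.31 (95% counting interval 0.28 to 0.35). With the median of ratios this sign turned. Relative to BiP, Xbp1 was higher on any scaling: for each Hspa5 read there were 0.959 Xbp1 reads in pleural cavity eosinophils against 0.321 in those of bone marrow, a 2.99-fold difference. Gene counts do not separate the spliced from the unspliced Xbp1 transcript. The sensors Ern1 and Atf6 and the factors Atf4, Ddit3, Ddit4 and Trib3 were not listed.

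In the cytosol, the constitutive HSP70 and HSP90 genes were lower and no stress-inducible HSP70 gene was listed. Hspa8, or HSC70, the constitutive HSP70 protein, had the highest level per kilobase of all members in both tissues. It had 25969.5 mean reads in pleural cavity eosinophils against 30304 in those of bone marrow, a log2 ratio of -0.66. Hsp90ab1, the constitutive HSP90, was at -0.65, with 9816 and 11347 mean reads. Hsp90aa1, the inducible HSP90, was lower still, with 4003.5 and 7251 mean reads and a log2 ratio of -1.30. For each Hsp90ab1 read there were 0.408 Hsp90aa1 reads in pleural cavity eosinophils against 0.639 in those of bone marrow.

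Hspa13, a microsome-associated HSP70 protein, was 5.27-fold lower with 151 and 587.5 mean reads. Hspbap1, which binds a small heat shock protein, was the only higher gene of this group, with a log2 ratio of 1.07 and with 834 and 293.5 mean reads. In mitochondria, Hspa9, or mortalin, which pulls proteins into the matrix, had 1267 and 1818 mean reads and a log2 ratio of -0.96. Hspe1, the HSP10 lid of the mitochondrial chaperonin, had 255 and 565.5 and a log2 ratio of -1.59. Its partner Hspd1, encoded next to it, was not listed.

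Of the chaperonin CCT, which folds actin and tubulin, only Cct7 was listed of 9 annotated genes with the name. It had 3514 and 4208 mean reads and a log2 ratio of -0.70. Tcp1, a subunit of the same complex outside the name pattern, was also listed, with 2251 and 2489 mean reads and a log2 ratio of -0.58. The listed Bag genes, nucleotide exchange factors of HSP70, went opposite ways. Bag5 had 1102 mean reads in pleural cavity eosinophils against 431 in those of bone marrow, with a log2 ratio of 0.92, and Bag2, which inhibits the ubiquitin ligase CHIP, had 40 and 157, with a log2 ratio of -2.41.

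The genes of J-proteins, which hand substrates to HSP70 and start its ATP hydrolysis, were higher in 9 of 12 listed genes, where 42.5% of all listed genes were, but in 6 of 12 with the median of ratios, where 35.8% were. Their median log2 ratio was 0.45. Dnajb2 had the largest ratio on the higher side, with 517.5 mean reads in pleural cavity eosinophils against 130 in those of bone marrow, 2.94-fold higher. Dnajb9, or ERdj4, an ER J-protein that restrains IRE1 through BiP, had 2564 and 953, 1.98-fold higher. This is just under the 2-fold line. Dnajc8, a J-protein associated with splicing, had 3919 and 1903.5, with a log2 ratio of 0.60.

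Dnajb1, the main heat-inducible J-protein of the cytosol, had 3922 and 2245 mean reads and a log2 ratio of 0.37, a sign that the median of ratios turned. For each Hspa8 read there were 0.151 Dnajb1 reads in pleural cavity eosinophils against 0.0741 in those of bone marrow, a log2 difference of 1.03 on any scaling. Dnajc14 had 5693 and 3286 mean reads, with fractional means and a log2 ratio of 0.35. The remaining higher J-protein genes Dnajb6, Dnajb12, Dnajc7 and Dnajc30 lay between 0.32 and 0.64.

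The lower J-protein genes were 3. Dnajc6, or auxilin, which uncoats clathrin vesicles, had the lowest ratio of all members, with 6.5 mean reads in pleural cavity eosinophils against 208.5 in those of bone marrow. Its log2 ratio of -5.44 had a counting interval of -6.36 to -4.65. Dnajc9, a histone co-chaperone of dividing cells, had 1274 and 2359 mean reads and a log2 ratio of -1.33. The proliferation markers above were lower too, as were 57.5% of all listed genes, and a link between them was not tested. Dnajc3, or p58IPK, an ER co-chaperone of BiP with an ERSE, had 1876.5 and 2537.5 and a log2 ratio of -0.87. The ER J-proteins Dnajb9 and Dnajc3 therefore parted: for each Dnajc3 read there were 1.37 Dnajb9 reads in pleural cavity eosinophils against 0.376 in those of bone marrow, a log2 difference of 1.86.

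Taking the ER folding proteins across these groups, that is BiP, GRP94, GRP170, Hspa13, the lectins, the disulfide isomerases, Fkbp2, Fkbp9, Fkbp11, Ppic, Dnajb9 and Dnajc3, 15 of 16 were lower, where 57.5% of all listed genes were, and 10 were more than 2-fold lower, near the 50.5% of all listed genes. The exception was Dnajb9. This grouping was made after the values were seen. The median log2 ratio was -1.28, beside -0.62 for the 39 other members, of which 20 were lower and 19 higher, and -1.02 for all listed genes. The summed share of the 16 genes in the listed reads was 0.319% in pleural cavity eosinophils against 0.688% in those of bone marrow. With Hspa5 left out, 14 of 15 were lower, and without the 3 genes of fractional means 12 of 13 were. Of the 9 that reached 1000 mean reads in each tissue, all were lower, where 28.4% of the listed genes at that depth were. Of these 9, 4 were more than 2-fold lower, where 13.2% of the genes at that depth were. Under every scaling tried, 15 of 16 were lower, where 57.5% to 64.2% of all listed genes were. The number more than 2-fold lower ran from 7 without scaling, where 43.2% of all listed genes were, to 15 with the median of ratios, where 57.3% were.

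Genes of the same pathways that the name pattern does not match were taken from a list of 115 symbols, of which 43 were listed. Of these, 28 were lower and 15 higher, near the 57.5% and 42.5% of all listed genes. The median log2 ratio was -0.87, and -1.02 for all listed genes. More than 2-fold lower were 14, where 50.5% of all listed genes were, and 1 was more than 2-fold higher, where 16% were. With the median of ratios, Ppp1r15a, Derl1, Tmed10, Srp14, Tmx3, St13 and Ppp1r15b turned lower, and 64.2% of all listed genes were lower. Subunits of the oligosaccharyltransferase, which puts sugars on proteins entering the ER, were lower: Ddost at -1.20, Rpn2 at -1.10, Stt3b at -1.09 and Rpn1 at -0.95. Manf, an ER-resident factor that binds BiP, had 972.5 mean reads in pleural cavity eosinophils against 2061 in those of bone marrow, with a log2 ratio of -1.52.

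Asns, asparagine synthetase, had 22.5 mean reads in pleural cavity eosinophils against 674.5 in those of bone marrow, a log2 ratio of -5.34. Chac1, which breaks down glutathione, had 0 reads in pleural cavity eosinophils against 64.5 in those of bone marrow, at least 29.1-fold lower against a floor of 3 reads in the tissue mean. Nupr1, a stress-induced nuclear protein, had 284.5 and 51.5, with a log2 ratio of 2.03. Ppp1r15a, or GADD34, which reverses the stress block on translation, was at 0.23, with 4180.5 and 2623.5 mean reads. The median of ratios turned this sign.

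Transcription factors and ER proteins were found on both sides. Wfs1, an ER membrane protein of calcium handling, had 39 and 136.5 mean reads and a log2 ratio of -2.25. Sil1, an exchange factor of BiP, had 125.5 and 381, with a log2 ratio of -2.04. Hsf1, the heat shock transcription factor, had 2337.5 and 926.5 with a log2 ratio of 0.90. Creb3, an ER-bound transcription factor, had 2814 and 1078 with a log2 ratio of 0.95. Their relatives Hsf2 and Creb3l2 were at -1.40 and -1.88, and the ER proteins Tapbp and Selenok at 0.88 and 0.83. Sil1, Creb3, Tapbp and Selenok had fractional means.

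**Figure D4:**
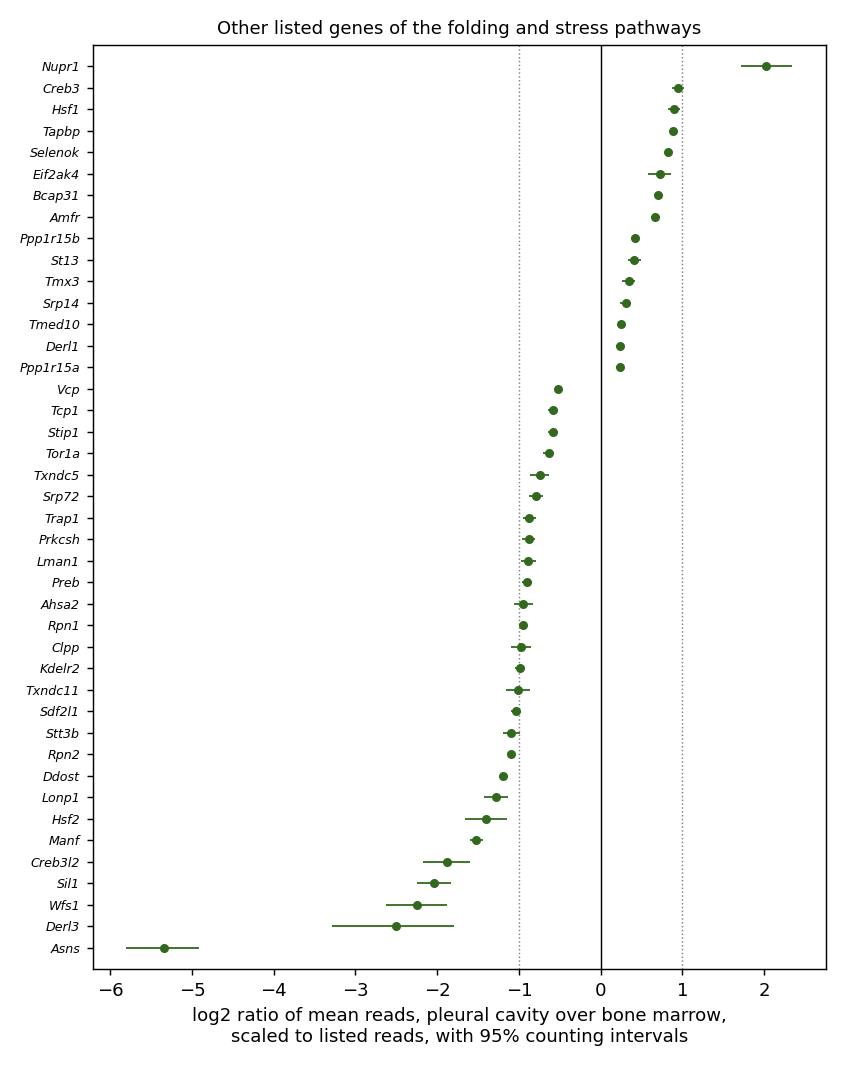
Log2 ratio of pleural cavity over bone marrow mean reads of the listed pathway genes outside the name pattern, ordered by value. Asns lies lowest among the genes with reads in both tissues at -5.34 and Nupr1 highest at 2.03.

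The promoter sequences were searched on both strands for motifs of these pathways, as a description of the letters in the window. The ERSE was found in 5 of 44 members (11.4%), in 0.137% of all 27025 genes in the table and in 10 of the 4673 listed genes with a promoter (0.214%). All 5 members that carry it, printed above, were ER folding genes and lower in pleural cavity eosinophils, and none of the 18 higher members with a promoter sequence carried it. All 10 listed genes with an ERSE, these 5 members among them, were lower. Of all 5807 listed genes, with or without a promoter sequence, 57.5% were lower. Among the 5 that are no members, Hnrnpa3 was at -0.91 and Derl3, a degradation factor of secretory cells, had 10 and 42 mean reads. The others had few reads or none in pleural cavity eosinophils: Adcy3 had 26.6 and 156, Esp15 had 0 and 19, and Esp16 had 0 and 17.5.

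The CCACG part of the element alone, which every ERSE contains, was in 31 of 44 members (70.5%), in 47.4% of the listed genes and in 35.5% of all genes. The UPR element TGACGTGG was in 2 members (Sec23a and Sec24d), in 0.92% of the listed genes and in 0.714% of all genes. Sec23a was higher and Sec24d lower in pleural cavity eosinophils. The amino acid response element TGATGNAAT was in none of the 44 members in 0.877% of the listed genes and in 1.08% of all genes. The heat shock element, searched as GAANNTTC or TTCNNGAA, was in 6 of 44 members (13.6%), in 15.3% of the listed genes and in 17% of all genes. Of these 6, Dnajb6, Sec23a and Sec62 were higher and Hspe1, Sec61g and Ssr1 lower. The cytosolic genes Hspa8, Hsp90aa1 and Hsp90ab1 had no promoter sequence and were not searched.

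The window of Hspe1 is shown because this promoter lies between the genes of the mitochondrial chaperonin pair, of which only Hspe1 was listed. The capitals mark the run of overlapping heat shock elements, from which the flanks extend to 30 bases that overlap an annotated exon of Hspd1.
Hspe1 (chr1:55088053-55088082, plus strand): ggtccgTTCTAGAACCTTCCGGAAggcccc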

How the data were processed

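RNA of sorted eosinophils was amplified as low-input cDNA and made into libraries by a transposon-based method, with 2 libraries per tissue grouped by their labelled tissue. The authors filtered paired reads with SOAPnuke, aligned them to GRCm38 with HISAT2 2.1.0, mapped them to transcripts with Bowtie2 2.2.5, estimated counts per gene with RSEM 1.2.8 and ran DESeq2 between the tissues. The deposited table holds expected counts (estimated counts that need not be whole), given as 1 mean per tissue and without scaling for depth. It also holds the authors' log2 fold changes, p-values and q-values, which were not used, except to see that 0 of the 5807 listed genes have a q-value over 0.05. It has 0 per-sample columns that were left out. Fractional means not named above were those of the members Bag5, Pdia3, Ssr1, Cct7, Dnajc7 and Dnajc30. Rpn2 and Tcp1, outside the name pattern, had them too.

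The depth of each library is unknown. The listed mean reads summed to 15947438 for pleural cavity eosinophils and to 11762543 for those of bone marrow, and each tissue was scaled to its sum. The log2 ratio of the scaled means was read against 2-fold, beside all listed genes. Counting intervals are exact binomial intervals. Alternatives were no scaling, the median of ratios, TMM (edgeR 4.0.16), a read minimum of 100, a 4-fold threshold and, chosen after seeing the data, the centre of the gap in the ratios. The planned test on counts per library could not be made on means. The calculation was tested on simulated data in which few genes differed, in directions drawn at random. The scaling was therefore not tested on a table that holds only genes called different. The software was R 4.3.3 and Python 3.11.15 with scipy 1.17.1, numpy 2.4.6 and pandas 2.3.3.

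The members and lists were chosen with earlier results of these data known. All members of role groups of up to 8 genes are named, and of larger groups those with the most reads and the largest ratios. Of the other pathway genes the 3 with the largest ratios in each direction at 100 or more reads are named, and further ones were chosen after their values were seen. Coordinates and the longest transcript come from a GENCODE release on GRCm38 that precedes the one the authors used, in which all 55 members matched by Ensembl identifier. RefSeq promoters (GRCm38.p6) matched 44 members. Hspa13, Hyou1, Hspa8, Hsp90ab1, Hsp90aa1, Hspa9, Ppic, Dnajc30, Ssr2, Sec11c and Ppid had none. Protein motifs were not analysed here. The result of 1 marker list is not reported here.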

Additional observations from a re-analysis of the deposited data

How the results depend on the processing

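With 1 mean per tissue, depth per library and spread between mice are unknown, and a ratio on few reads is imprecise. No paired analysis was possible because the mean columns carry no replicate number, and for the same reason no replicate could be left out and no count test was run. The number of members more than 2-fold higher was 5 and became 12 without scaling, 2 with the median of ratios, 8 with TMM, 8 with the centre of the gap (chosen after seeing the data) and 1 at 4-fold. The number more than 2-fold lower was 20 and became 11 without scaling, 35 with the median of ratios and 9 at 4-fold, with 17 under TMM and 18 under the centre of the gap. The members' median log2 ratio of -0.74 became -0.30 without scaling, -1.18 with the median of ratios, -0.55 with TMM and -0.59 with the centre of the gap. That of the other pathway genes, -0.87, became -0.44, -1.32, -0.69 and -0.73 in the same order. These moves follow from the shift of the zero line, by 0.44, -0.44, 0.19 and 0.14, which moved the median of all listed genes, -1.02, to -0.58, -1.47, -0.83 and -0.88. A minimum of 100 reads gave 5 members higher and 19 lower, leaving out fractional means gave 5 and 17, and leaving out Sec14l1 gave 4 and 20. The planned removal of Hspg2 had no effect, since it is not listed.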
